A study of Rattus norvegicus with 24 samples.

Results

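The genes described here are 10 that govern the G1 phase of the cell cycle and the step into S phase. They are the D-type cyclins Ccnd1, Ccnd2 and Ccnd3, the E-type cyclins Ccne1 and Ccne2, the kinases Cdk4 and Cdk6, and the kinase inhibitors Cdkn1b, Cdkn1c and Cdkn2c. They were chosen by symbol, all 10 were found among the 17055 genes of the count tables, and 9 passed the filter on low counts. Cdkn1c did not pass, with 0 to 8 counts per library.

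RNA came from PC12 cells, a line from a rat tumour of the adrenal medulla. One stable line carried the empty vector pcDNA3 and the other expressed human α1ACT, a protein encoded within the transcript of the calcium channel gene CACNA1A. Both lines were grown in F-12K medium with horse and fetal bovine serum, with no other treatment given in the labels. Time labels of 6 h, 24 h, 3 d and 10 d divide each line into 4 groups of 3 libraries. The event from which the times run is not given, and since a single line stands for vector and for α1ACT, an effect of α1ACT cannot be told apart from other differences between them. The tables hold no gene row for the human transgene, so it does not check the labels.

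For 18 of the 24 libraries the deposited file's name gives another time than the label, or another line and time, the line being the other one in 12. Libraries labelled vector carry P in their titles and those labelled α1ACT carry Q11. The files of the groups labelled vector 6 h, α1ACT 6 h, vector 24 h and α1ACT 24 h are named P at 6 h, 24 h, 3 d and 10 d. Those of the groups labelled vector 3 d, α1ACT 3 d, vector 10 d and α1ACT 10 d are named Q11 at 6 h, 24 h, 3 d and 10 d. Groups here are those of the labels, and the reading by file names stands beside them.

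As labelled, Ccnd3, Ccne1 and Cdk4 were on average higher in the α1ACT line, by 0.39 ± 0.03, 0.47 ± 0.06 and 0.23 ± 0.02 on the log2 scale (± SE, 12 libraries a line). The average was also higher for Ccnd1 (0.38 ± 0.03), Cdkn2c (0.30 ± 0.05) and Ccne2 (0.29 ± 0.04) and lower for Cdkn1b (-0.19 ± 0.04). Ccnd1 and Cdk6 were higher at 6 h and 3 d, by 0.64 ± 0.07 and 0.58 ± 0.07 for Ccnd1, which was also higher at 24 h (0.21 ± 0.06), and by 0.38 ± 0.07 and 0.44 ± 0.07 for Cdk6. Cdkn2c and Ccne2 were higher at 24 h and 10 d, by 0.95 ± 0.09 and 0.69 ± 0.10 for Cdkn2c and by 0.71 ± 0.09 and 0.55 ± 0.09 for Ccne2, and Cdkn2c was lower at 6 h (-0.39 ± 0.09). At those 2 times Cdkn1b and Cdk6 were lower, by -0.35 ± 0.07 and -0.51 ± 0.07 for Cdkn1b and by -0.39 ± 0.07 and -0.28 ± 0.07 for Cdk6. With all libraries in the fit, and between labelled 6 h and 3 d or 24 h and 10 d of the same line, Ccnd2 was the only one of the 9 tested genes with a difference that passed.

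In the cell cycle, D-type cyclins are made in response to growth signals and bind Cdk4 or Cdk6. These kinases phosphorylate the retinoblastoma protein, which then releases E2F transcription factors, and E2F induces E-type cyclins that activate Cdk2 for entry into S phase. Inhibitors of the INK4 family, to which Cdkn2c (p18) belongs, bind Cdk4 and Cdk6, while those of the CIP/KIP family, to which Cdkn1b (p27) and Cdkn1c (p57) belong, act on cyclin and kinase complexes and above all on Cdk2. PC12 cells divide in serum and leave the cycle when nerve growth factor turns them into neuron-like cells.

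Promoters in the RefSeq table of build GRCr8 were matched for 5 of the 10 genes, Ccnd3, Ccne1, Cdk4, Cdkn1b and Cdkn2c. The 250 bases before the start site are shown for 4 of them. Among these 4, Ccne1, Cdk4 and Cdkn2c had their lowest group means in vector 24 h and 10 d, where Cdkn1b had its highest. For Ccne1 the libraries of vector 24 h overlapped those of vector 6 h. Ccne2 was also lowest in vector 24 h and 10 d but had no matched promoter. Capitals mark matches on either strand to the E-box CACGTG, the CCAAT box CCAAT and the GC box GGGCGG.
Ccne1, GRCr8 chr1:99927910-99928159, minus strand: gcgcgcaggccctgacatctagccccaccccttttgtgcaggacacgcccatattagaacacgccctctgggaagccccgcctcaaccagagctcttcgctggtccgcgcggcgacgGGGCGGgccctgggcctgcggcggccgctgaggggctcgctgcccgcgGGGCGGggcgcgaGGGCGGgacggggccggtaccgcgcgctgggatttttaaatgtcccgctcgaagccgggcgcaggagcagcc
Cdk4, GRCr8 chr7:64771203-64771452, plus strand: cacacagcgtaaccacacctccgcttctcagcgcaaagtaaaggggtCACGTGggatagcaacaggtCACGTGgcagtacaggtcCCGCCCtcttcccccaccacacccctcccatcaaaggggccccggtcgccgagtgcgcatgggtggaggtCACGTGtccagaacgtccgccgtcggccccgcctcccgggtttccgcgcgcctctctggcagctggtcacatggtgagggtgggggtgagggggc
Cdkn2c, GRCr8 chr5:129644892-129645141, minus strand: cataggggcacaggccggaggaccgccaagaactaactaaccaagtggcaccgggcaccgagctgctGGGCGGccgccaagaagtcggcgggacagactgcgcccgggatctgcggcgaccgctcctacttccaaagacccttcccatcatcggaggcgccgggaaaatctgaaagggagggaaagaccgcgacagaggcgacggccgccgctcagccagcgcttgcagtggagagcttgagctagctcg
Cdkn1b, GRCr8 chr4:169491254-169491503, plus strand: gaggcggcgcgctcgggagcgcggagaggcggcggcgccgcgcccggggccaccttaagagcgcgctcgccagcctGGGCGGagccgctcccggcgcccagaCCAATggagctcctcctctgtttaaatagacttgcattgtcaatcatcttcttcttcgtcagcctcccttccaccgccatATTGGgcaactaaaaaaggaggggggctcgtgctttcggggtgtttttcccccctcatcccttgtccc
Cdk4 held 3 E-boxes, the motif bound by MYC and MAX and by related factors, and 17 of 33469 windows (0.0508%) held at least 3. That cut-off equals the count in Cdk4 and was applied to no other of the 7 motifs searched. The share is therefore no test of how unusual this window is. At least 1 E-box was in 5.59% of windows. Ccne1 had 3 GC boxes, and Cdk4, Cdkn1b and Cdkn2c 1 each, against 30.5% of all windows with at least 1. Cdkn1b had 2 CCAAT boxes, which 34.0% of windows hold at least once. None of 4 spellings of the E2F motif (TTTCCCGC, TTTCGCGC, TTTGCCGC and TTTGGCGC, found in 1.73% of windows) was in these windows, nor were CRE (TGACGTCA, 1.59%), AP-1 (TGACTCA, 4.05%) or CHR (TTTGAA, 16.2%), which says only that those letters are not there. GC content was 64.0% to 72.8% in the matched windows, above the median of 51.2% over all windows. No E-box, CCAAT box or GC box match overlapped another, and a match is a description of letters, not of a bound factor.

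Each library held 8679560 to 14486248 counts on genes (median 11663500). Levels are given as CPM, counts scaled to the same library total with TMM factors, and 3 counts stood at 0.206 to 0.352 CPM. Among 8 chromaffin markers, Th was at 4760 to 8637 CPM and Chga at 2136 to 3765 CPM, while Pnmt had at most 0.0821 CPM. Ptprc (immune), Sox10 (glial) and Col1a2 (fibroblast) were at 0 in every library. The 4 epithelial markers summed to 1255 to 1798 CPM in the vector 6 h and 3 d libraries and to 476 to 498 CPM in the vector 24 h and 10 d libraries. In the α1ACT libraries their sum was 920 to 1161 CPM at 6 h and 3 d and 652 to 734 CPM at 24 h and 10 d, mostly from Krt8, and Cdh1 stayed at 0.501 to 2.75 CPM. Within the vector line this sum was low where Cdkn2c and Ccne2 were low. Fibroblast markers, nearly all Dcn, summed to 3.15 to 7.34 CPM in the α1ACT 6 h and 3 d libraries and to 0.518 to 3.67 CPM in the others. Immune markers summed to 1.28 to 3.62 CPM. The chromaffin sum was 24538 to 28539 CPM in the α1ACT 24 h and 10 d libraries and 18550 to 24635 CPM in the others. The part of these markers in any result was not tested. In bulk RNA, a change in the share of cells in a phase and a change in RNA per cell cannot be told apart. Levels are compared here between groups for 1 gene and never between genes, since the tables give no transcript length. The 3 libraries of a group are called biological replicates, but whether they came from separate cultures is not said, so the tests gauge only how far these libraries vary.

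**Figure D1:**
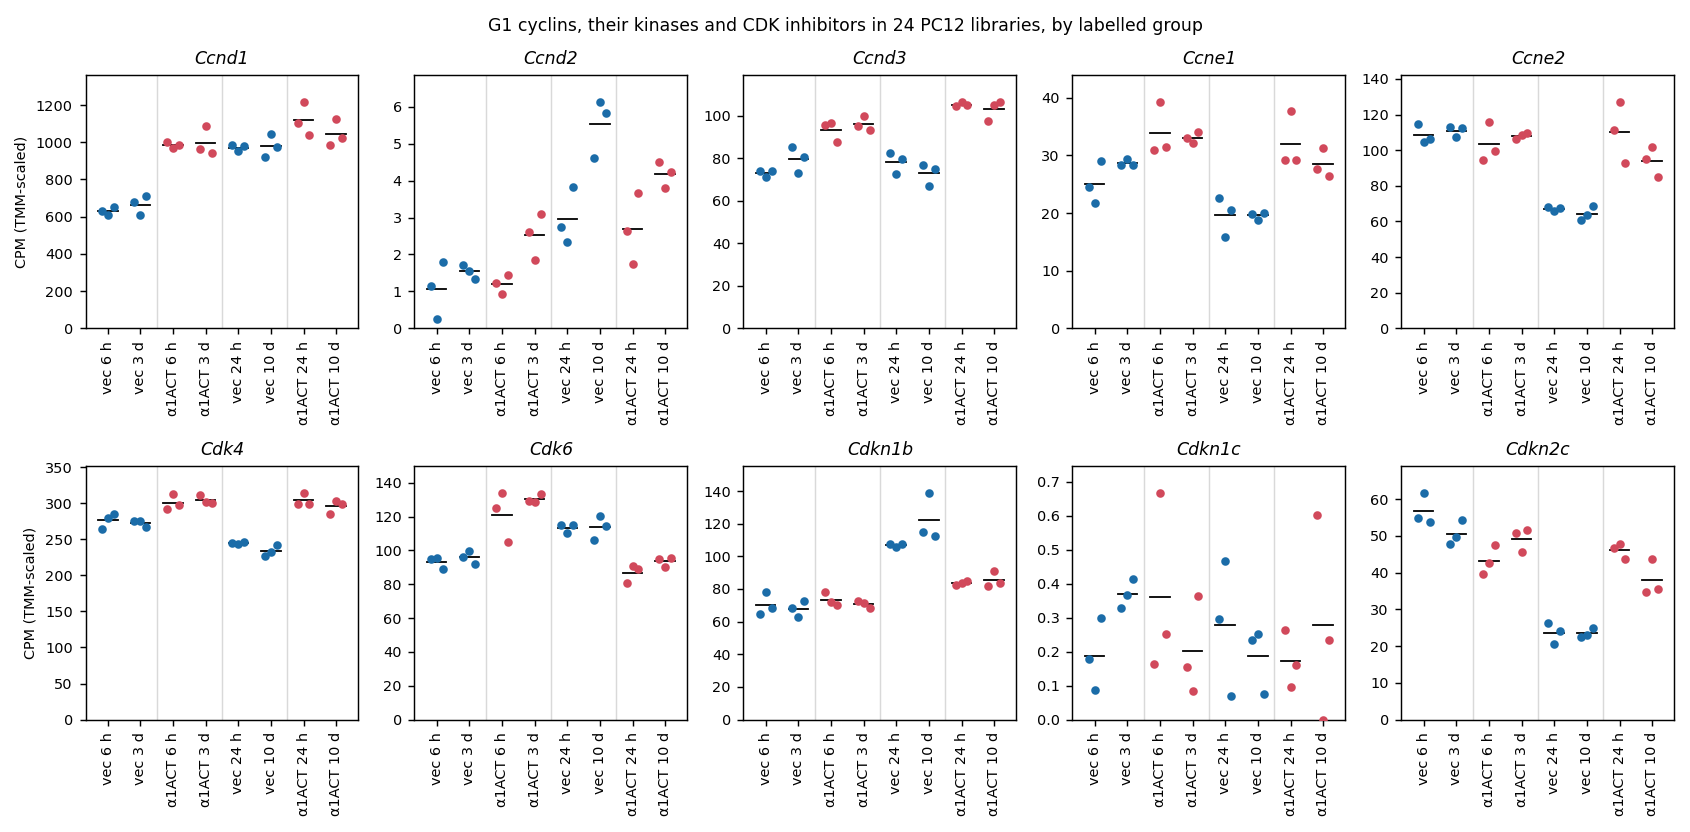
CPM of the 10 genes in each of 24 libraries (points, blue for libraries labelled vector and red for α1ACT, in the order of replicate number) with group means (bars), groups of each labelled line set side by side as 6 h with 3 d and 24 h with 10 d. The Ccnd1 panel shows the 6 vector 6 h and 3 d libraries between 608 and 710 CPM, below the other 18 libraries, and the Cdkn2c panel shows the 6 vector 24 h and 10 d libraries lowest, between 20.4 and 26.2 CPM.

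Ccnd1 encodes cyclin D1, the main sensor of mitogen signals in many cells. Vector libraries of 6 h had 633, 609 and 650.3 CPM of it, against 999.7, 967 and 988 CPM in the α1ACT 6 h libraries. Vector 3 d libraries had 677, 608 and 710.2 CPM against 961, 1086 and 945 CPM for α1ACT. At both times every α1ACT library was above every vector library. Its fold difference was 1.56 at 6 h and 1.5 at 3 d (quasi-likelihood test of edgeR, Benjamini-Hochberg over 9994 genes, adjusted p = 2.57e-08 and 1.48e-07). At 24 h the vector libraries had 983, 953 and 978 CPM and the α1ACT libraries 1106, 1218 and 1041 CPM. That difference of 0.21 ± 0.06 passed (adjusted p = 0.00820 in edgeR) but ended without α1ACT replicate 2 of that time (0.0779) or without all libraries numbered 1 (0.0525), with a range of 0.00179 to 0.0779 over all alternatives. At 10 d the groups, 921, 1042 and 977 CPM for vector and 984, 1125 and 1021 CPM for α1ACT, overlapped and differed by 0.09 ± 0.06 (adjusted p = 0.236 in edgeR). In the order of group means Ccnd1 ran from α1ACT 24 h (1122 ± 89.4 CPM, SD, n = 3) down to vector 6 h (631 ± 20.6 CPM). Only the step between vector 24 h (971 ± 16.2 CPM) and vector 3 d (665 ± 52.1 CPM) separated neighbours whose libraries did not overlap.

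Ccnd3, for cyclin D3, had 74.0, 71.2 and 73.7 CPM in the vector and 95.7, 96.3 and 87.6 CPM in the α1ACT libraries at 6 h. At 24 h the values were 82.4, 72.6 and 79.5 CPM against 104, 106 and 105 CPM. All 12 α1ACT libraries lay above all 12 vector libraries for this gene, and it passed at each of the 4 times. The log2 differences were 0.35 ± 0.06 at 6 h, 0.43 ± 0.06 at 24 h, 0.27 ± 0.06 at 3 d and 0.50 ± 0.06 at 10 d (adjusted p = 0.00128 or lower in edgeR). Group means fell into an upper set from α1ACT 24 h (105 ± 1.11 CPM, SD, n = 3) to α1ACT 6 h (93.2 ± 4.85 CPM) and a lower set from vector 3 d (79.6 ± 6.31 CPM) to vector 10 d (72.8 ± 5.32 CPM). Neighbours within each set overlapped. Pseudogenes named for Ccnd3 and Cdk4 are annotated in the RefSeq gene table, and how reads shared with such copies were counted is not known here.

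Ccnd2, for cyclin D2, was scarce, with 3 to 77 counts per library. Its values were 1.15, 0.260 and 1.80 CPM in vector 6 h, the second of these libraries with only 3 counts, and 1.72, 1.56 and 1.35 CPM in vector 3 d. The α1ACT libraries had 1.23, 0.916 and 1.43 CPM at 6 h and 2.61, 1.85 and 3.10 CPM at 3 d. Higher values were seen at 24 h, with 2.74, 2.33 and 3.84 CPM for vector and 2.64, 1.74 and 3.67 CPM for α1ACT, and at 10 d, with 4.61, 6.14 and 5.83 CPM for vector and 4.51, 3.81 and 4.22 CPM for α1ACT. None of its 4 line differences passed (adjusted p = 0.117 to 0.747 in edgeR), and their standard errors of 0.26 to 0.43 were the widest of the 9 tested genes. At 3 d the difference of 0.69 ± 0.34 passed without the libraries numbered 2 (adjusted p = 0.0376, range 0.0376 to 0.433). With all libraries it was the one member with a call between 6 h and 3 d or between 24 h and 10 d of the same line. Within the vector line it was 1.82-fold higher at 10 d than at 24 h (0.87 ± 0.25, adjusted p = 0.0373 in edgeR), with all 10 d libraries above all 24 h libraries. That call ended without vector replicate 1 or 2 of 24 h (0.145 and 0.0959) or replicate 2 or 3 of 10 d (0.147 and 0.0909), without all libraries of any 1 number, and in a fit of the 6 libraries alone. Its adjusted p ran from 0.0114 to 0.257 over the alternatives.

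E-type cyclins drive Cdk2 at the start of S phase and are E2F targets. Ccne2, for cyclin E2, had 68.1, 65.6 and 67.6 CPM in the vector 24 h and 61.0, 63.7 and 68.5 CPM in the vector 10 d libraries. The α1ACT libraries of those times had 111, 127 and 92.8 CPM and 95.1, 102 and 85.1 CPM. None of the 6 vector libraries reached the lowest of these 6 α1ACT libraries, and the fold difference of Ccne2 was 1.64 at 24 h and 1.46 at 10 d (adjusted p = 1.00e-07 and 7.72e-06 in edgeR). At 6 h and 3 d the lines had 108 ± 5.4 and 111 ± 3.28 CPM for vector and 103 ± 11.2 and 108 ± 1.75 CPM for α1ACT (SD, n = 3), with log2 differences of -0.07 ± 0.08 and -0.04 ± 0.08 that did not pass. At 6 h the difference passed without the libraries numbered 2, at -0.209 (adjusted p = 0.0284 in edgeR, range 0.0284 to 0.946 over alternatives). In the order of means the only neighbours that did not overlap were α1ACT 10 d (94.1 ± 8.51 CPM) and vector 24 h (67.1 ± 1.31 CPM).

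Ccne1, for cyclin E1, was at 22.7, 15.8 and 20.5 CPM in vector and 29.2, 37.7 and 29.2 CPM in α1ACT libraries at 24 h. At 10 d it was at 19.9, 18.8 and 20.1 against 27.7, 31.3 and 26.5 CPM, and at 6 h at 24.5, 21.7 and 29.0 against 30.9, 39.3 and 31.5 CPM. The libraries of the lines did not overlap at any of the 4 times. Ccne1 was 1.61-fold higher at 24 h, 1.46-fold at 10 d and 1.36-fold at 6 h (adjusted p = 2.54e-05, 5.83e-04 and 0.00407 in edgeR), while 0.20 ± 0.12 at 3 d did not pass (0.174). It passed at 3 d in a fit of those 6 libraries alone (0.0320) and without all libraries numbered 2 (0.0457), over a range of 0.0320 to 0.440. The call at 6 h ended without α1ACT replicate 2 of that time (0.0600) and without all libraries numbered 2 (0.0626), over a range of 0.00103 to 0.0626. Without the libraries numbered 2 the difference at 6 h was 0.209, against 0.44 with them. No neighbours in the order of its 8 group means, from α1ACT 6 h (33.9 ± 4.70 CPM, SD, n = 3) to vector 10 d (19.6 ± 0.715 CPM), were free of overlap.

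Cdk4 and Cdk6 are the catalytic partners of D-type cyclins. Cdk4 was at 244, 244 and 246 CPM in vector 24 h and 227, 232 and 242 CPM in vector 10 d libraries. The α1ACT libraries had 299, 314 and 299 CPM at 24 h and 285, 304 and 298 CPM at 10 d. At 6 h vector had 265, 279.9 and 285 CPM against 291, 313 and 298 CPM in α1ACT, and at 3 d 275, 275 and 267 CPM against 312, 301 and 300.4 CPM. Every α1ACT library exceeded every vector library, also across times, though the lowest α1ACT library (285.1 CPM, at 10 d) and the highest vector library (284.5 CPM, at 6 h) nearly met. The differences were 0.31 ± 0.04 at 24 h and 0.34 ± 0.04 at 10 d, with 0.12 ± 0.04 at 6 h and 0.16 ± 0.04 at 3 d (adjusted p = 5.91e-07, 1.84e-07, 0.0218 and 0.00354 in edgeR). The call at 6 h ended without vector replicate 1 (0.125) or α1ACT replicate 2 (0.230) of that time and without all libraries of any 1 number, over a range of 0.00232 to 0.230. At 3 d it ended without all libraries numbered 1 (0.0611) or 3 (0.0732), over a range of 4.41e-04 to 0.0732. By group means Cdk4 ran from α1ACT 3 d (305 ± 6.48 CPM, SD, n = 3) to vector 10 d (234 ± 7.37 CPM). Neighbours were free of overlap at 3 steps, from α1ACT 10 d to vector 6 h, from vector 3 d to vector 24 h and from vector 24 h to vector 10 d.

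Cdk6 differed between the lines in opposite directions. It was at 94.7, 95.7 and 89.0 CPM in vector and 125, 134 and 105 CPM in α1ACT libraries at 6 h, and at 96.3, 99.4 and 91.8 CPM against 129, 129 and 133 CPM at 3 d. In the 24 h libraries the vector line had 115, 111 and 115 CPM and the α1ACT line 80.7, 90.8 and 89.3 CPM. At 10 d the values were 106, 120.4 and 114 CPM for vector and 95.1, 90.3 and 95.6 CPM for α1ACT. Groups did not overlap at any time, with α1ACT above at 6 h and 3 d (1.30-fold and 1.36-fold) and below at 24 h and 10 d (1.31-fold and 1.21-fold lower). All 4 differences passed (adjusted p = 0.00109 or lower in edgeR), and the line by time interaction, the joint test of whether the line difference is the same at the 4 times, gave adjusted p = 9.77e-09. The order of means ran from α1ACT 3 d (130.5 ± 2.40 CPM, SD, n = 3) to α1ACT 24 h (86.9 ± 5.47 CPM), and vector 24 h and vector 3 d were the only neighbours without overlap.

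Cdkn1b encodes p27, an inhibitor that accumulates in resting cells. It had 108, 105 and 107 CPM in vector 24 h and 115, 139 and 112 CPM in vector 10 d libraries. In the α1ACT libraries it had 82.5, 83.7 and 84.8 CPM at 24 h and 82.0, 91.2 and 83.9 CPM at 10 d. It was 1.28-fold and 1.42-fold lower in the α1ACT line at these times (adjusted p = 1.88e-04 and 1.47e-06 in edgeR), with no overlap of libraries. At 6 h and 3 d the groups overlapped, from 67.9 ± 4.74 CPM in vector 3 d to 73.3 ± 4.19 CPM in α1ACT 6 h (SD, n = 3), and the differences of 0.06 ± 0.08 and 0.06 ± 0.08 did not pass. All 12 libraries labelled 24 h or 10 d were above all 12 labelled 6 h or 3 d, a difference of 0.48 ± 0.04 (adjusted p = 1.36e-11). In the order of means neighbours did not overlap from vector 10 d to vector 24 h, from vector 24 h to α1ACT 10 d and from α1ACT 24 h to α1ACT 6 h.

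Cdkn2c encodes p18, an INK4 inhibitor, and had the widest range of group means among members at or above 5 CPM on average, 2.42-fold. It was at 26.2, 20.4 and 24.1 CPM in vector 24 h and 22.4, 23.1 and 25 CPM in vector 10 d libraries, against 54.8, 61.7 and 53.9 CPM in vector 6 h and 47.9, 49.6 and 54.4 CPM in vector 3 d libraries. The α1ACT line had 39.6, 42.7 and 47.6 CPM at 6 h, 46.7, 47.9 and 43.6 CPM at 24 h, 50.7, 45.7 and 51.5 CPM at 3 d and 34.7, 43.7 and 35.5 CPM at 10 d. Its level in α1ACT was thus 1.94 times that in vector at 24 h and 1.62 times at 10 d (adjusted p = 4.30e-09 and 1.50e-06 in edgeR). At 6 h it was 1.31-fold lower (adjusted p = 9.01e-04), without overlap, and at 3 d the groups overlapped (-0.04 ± 0.09). Only α1ACT 10 d (38.0 ± 5.00 CPM, SD, n = 3) and vector 24 h (23.6 ± 2.92 CPM) were neighbours without overlap.

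Cdkn1c encodes p57, a KIP inhibitor of an imprinted locus. Its 69 counts over 24 libraries gave group means of 0.173 to 0.370 CPM, about the level of the 3-count floor, so no difference was detectable at this depth.

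**Figure D2:**
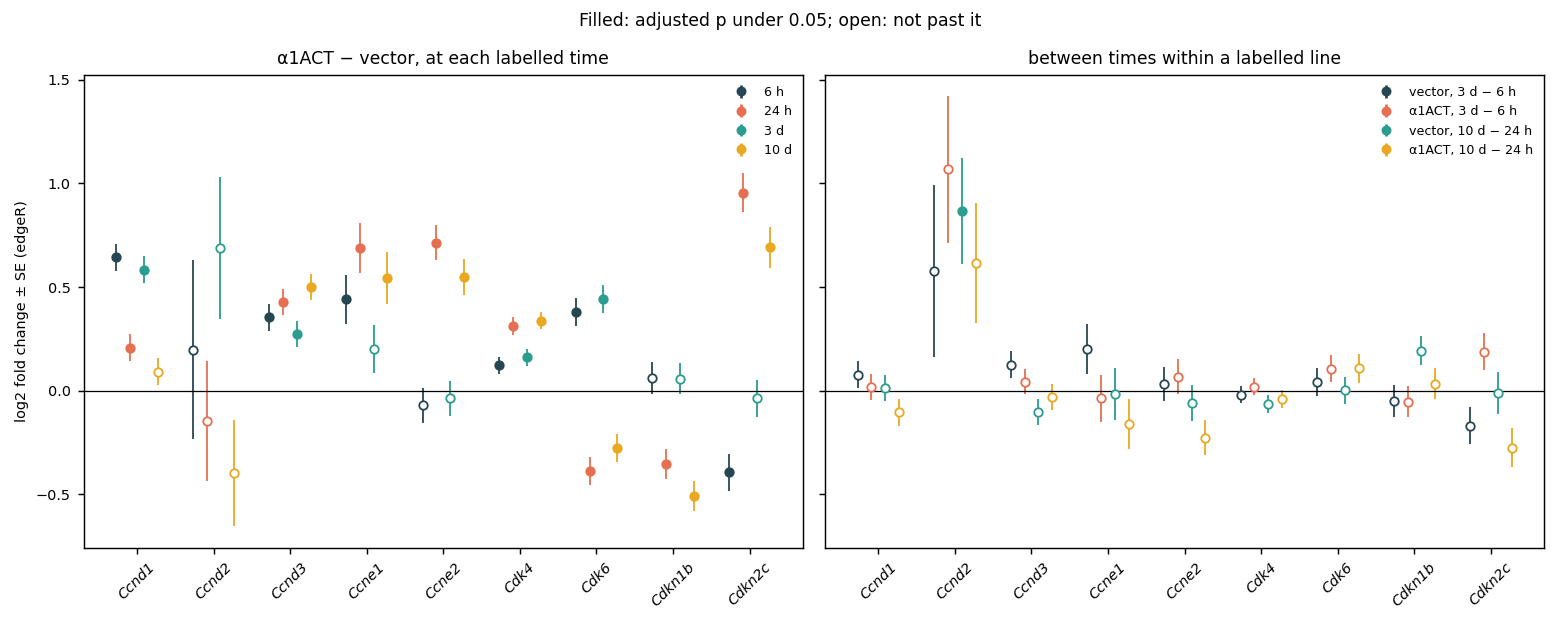
Log2 fold change with its standard error (y axis) for the 9 tested genes (x axis), α1ACT against vector at each labelled time on the left and later against earlier labelled time within a line on the right, filled where adjusted p is under 0.05. On the left 6, 8, 4 and 7 genes are filled at 6 h, 24 h, 3 d and 10 d, and on the right 1, Ccnd2.

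Counted by comparison, 6 of the 9 tested members passed at 6 h, where 41.6% of all tested genes did, 5 of them higher in α1ACT (20.5% of genes) and 1 lower (21.2%). At 24 h 8 passed against 55.5% of all genes, 6 higher (26.6% of genes) and 2 lower (28.8%). At 3 d 4 passed against 39.4%, all of them higher (19.9% of genes, with 19.4% lower). At 10 d 7 passed against 58.9%, 5 higher (29.5%) and 2 lower (29.4%). The median log2 difference of the 9 was 0.20, 0.31, 0.20 and 0.34 at the 4 times, where over all tested genes it was 0.00, -0.02, 0.01 and 0.01. None passed from 6 h to 3 d in the vector line, where 1.47% of genes did, with 0 also at an unadjusted p under 0.05 and in DESeq2. The share of all genes at an unadjusted p under 0.05 was not counted. Member counts at that threshold thus have no background beside them and cannot be read as many or few. In the α1ACT line none passed from 6 h to 3 d (1.06% of genes), with 2 at an unadjusted p under 0.05 and 0 in DESeq2. From 24 h to 10 d 1 passed in the vector line (7.44% of genes). None did in the α1ACT line (4.62% of genes), with 3 at an unadjusted p under 0.05 and 0 in DESeq2. In that comparison Cdkn2c passed, lower at 10 d, without α1ACT replicate 3 of 24 h (0.0480), replicate 2 of 10 d (0.0177) or all libraries numbered 2 (0.0137), over a range of 0.0137 to 0.555. Ccne2 did so without replicate 3 of 24 h (0.00643, range 0.00643 to 0.615). In the vector line Cdkn1b passed, higher at 10 d, without replicate 3 of 10 d (0.0492, range 0.0492 to 0.566).

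Averaged over the 4 times, the line difference passed for 7 members, against 66.3% of genes, with 6 higher (33.6% of genes) and 1 lower (32.7%). The line by time interaction passed for 6 members, against 57.7% of genes. In the joint test of any difference among the 4 times, 8 of 9 members passed in the vector line, all but Ccnd3 (71.7% of genes). In the α1ACT line 4 passed, against 55.3% of genes. These were Cdk6 (adjusted p = 6.02e-08 in edgeR), Ccnd2 (7.13e-04), Cdkn1b (0.00459) and Cdkn2c (0.00859). The last 3 calls depended on which libraries were used. Ccnd2 ended without the libraries numbered 1 (0.0655, range 1.25e-04 to 0.0655 over alternatives), Cdkn1b without those numbered 3 (0.111, range 0.00199 to 0.111), and Cdkn2c without those numbered 1 or 3 (0.250 and 0.105, range 2.26e-04 to 0.250). Without the libraries numbered 2, 8 members passed in this test. Over the 3 fits without libraries of 1 number, 2 to 8 members passed. Among all tested genes 3368 to 5638 passed in these fits, against 5530 with all libraries.

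By the file names the same libraries form 2 time courses, and labelled 6 h and 3 d groups of a line share a named time, as do its 24 h and 10 d groups. Read this way, Ccnd1 was at 631 ± 20.6, 985 ± 16.4, 971 ± 16.2 and 1122 ± 89.4 CPM in P files of 6 h, 24 h, 3 d and 10 d (SD, n = 3). In Q11 files it was at 665 ± 52.1, 997 ± 77.1, 979.8 ± 60.7 and 1043 ± 73.3 CPM at these times. In both courses the 3 libraries of the named 6 h were below all later ones. Cdkn2c in P files was at 56.8 ± 4.28, 43.3 ± 4.03, 23.6 ± 2.92 and 46.1 ± 2.22 CPM, lowest at the named 3 d, and Q11 files gave 50.7 ± 3.37, 49.3 ± 3.13, 23.5 ± 1.32 and 38.0 ± 5.00 CPM. Cdkn1b had its maximum at the named 3 d in both sets of files, 107 ± 1.19 CPM in P and 122 ± 14.5 CPM in Q11. Ccne1, Ccne2, Cdk4 and Ccnd3 had means at the named 10 d above those at the named 3 d in both courses, and Cdk6 peaked at the named 24 h, at 121 ± 15 CPM in P and 130.5 ± 2.40 CPM in Q11.

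All 9 tested members differed among the 4 named times, both within P files (83.3% of genes) and within Q11 files (84.5%). Adjusted p was 2.99e-04 or lower in P and 3.10e-05 or lower in Q11 (edgeR). The line difference by file names is, in the labels' terms, 3 d against 6 h or 10 d against 24 h within a line. Averaged, it is the contrast of labelled 3 d and 10 d with 6 h and 24 h, and 1 of 9 members passed it, where 15.6% of genes did. That member was Ccnd2, at 0.78 ± 0.17 (adjusted p = 0.00207), with Q11 means above P means at each of the 4 named times and overlap over all libraries. Its call ended without the libraries numbered 1 (0.118, range 1.07e-04 to 0.118 over alternatives). For the other 8 this difference lay between -0.07 ± 0.05 for Cdkn2c and 0.06 ± 0.03 for Cdk6. The interaction of line and time by file names passed for none of the 9 in edgeR and for 0.04% of genes (4 of 9994). At an unadjusted p under 0.05 there was 1 member, with no share of all genes counted at that threshold. DESeq2 was run only for comparisons with 1 coefficient. Leaving out the libraries numbered 2 made this interaction pass for Cdkn2c (0.0307, range 0.0307 to 0.844).

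The contrast of labelled 24 h and 10 d with 6 h and 3 d over both lines, which by file names sets 3 d and 10 d against 6 h and 24 h, passed for 8 members (71% of genes). Ccnd1 (0.36 ± 0.03), Ccnd2 (1.32 ± 0.16) and Cdkn1b were higher in the labelled 24 h and 10 d groups, as were 34.9% of genes. Cdkn2c (-0.66 ± 0.05), Ccne2 (-0.40 ± 0.04), Ccne1 (-0.30 ± 0.06), Cdk4 (-0.11 ± 0.02) and Cdk6 (-0.11 ± 0.03) were lower, as were 36.1% of genes. Ccnd3 passed without the libraries numbered 2 (0.0318, range 0.0318 to 0.502). The call of Cdk6 ended without the libraries numbered 1 (0.144, range 0.00221 to 0.144).

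**Figure D3:**
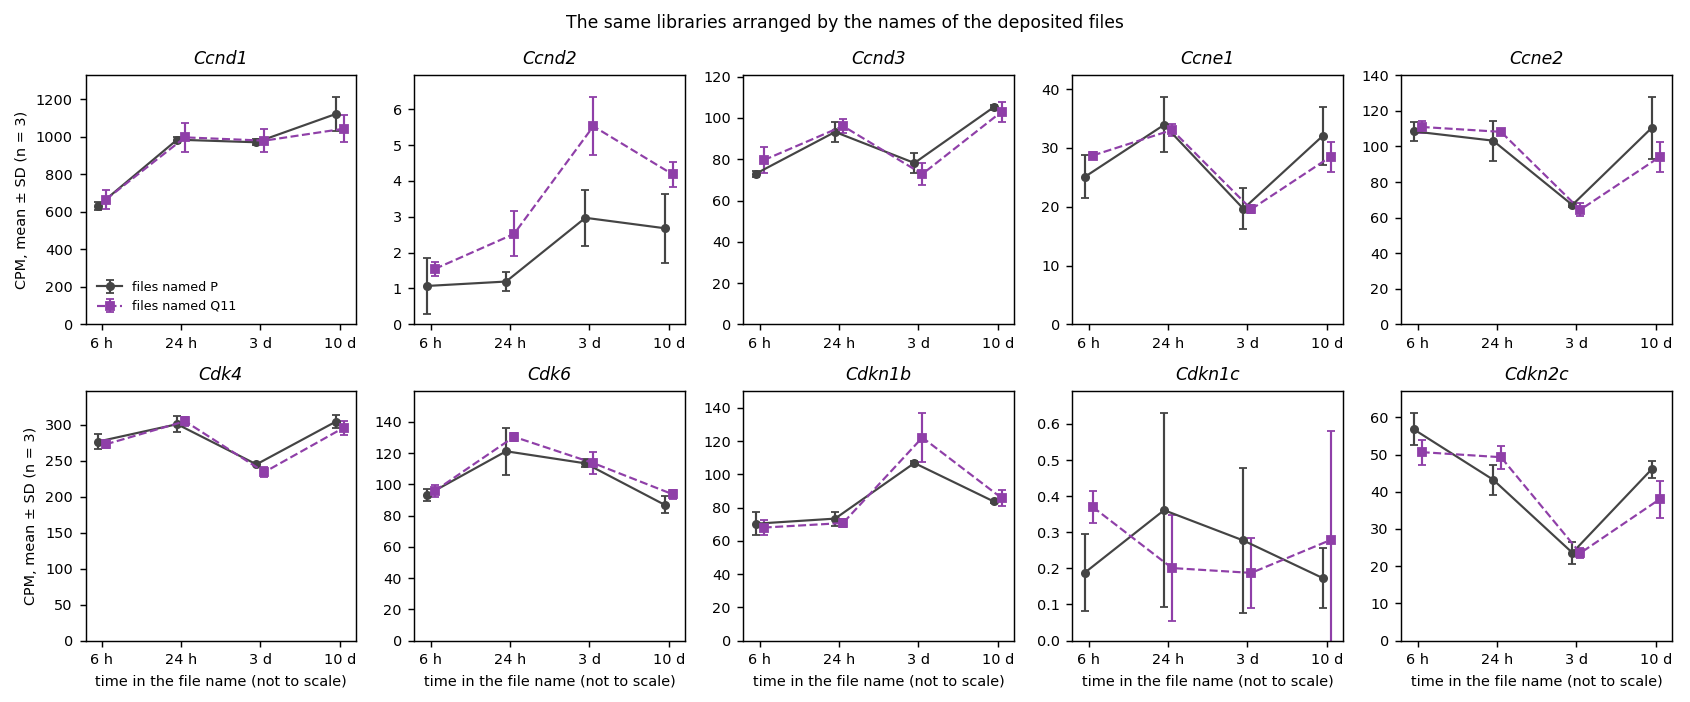
Mean CPM with SD (3 libraries each) of the 10 genes arranged by the line and time in the file names, P as a solid grey line and Q11 as a dashed purple line, times equally spaced and not to scale. Relative to their level, P and Q11 lie furthest apart for Ccnd2, where Q11 is above P at all 4 named times, and for Cdkn1c, which had only 0 to 8 counts per library. Smaller gaps are seen elsewhere, as for Cdkn2c (46.1 CPM in P and 38.0 in Q11) and Ccne2 (110 and 94.1) at the named 10 d. Cdkn1b is at 107 CPM in P and 122 in Q11 at the named 3 d.

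Of 30 other regulators of G1 and S phase set down for comparison, 21 were in the tables and 19 were tested. In α1ACT against vector 12 were higher and none lower at 24 h, where 26.6% of all tested genes were higher and 28.8% lower, and 11 were higher and 3 lower at 10 d (29.5% and 29.4%). E2f1, the transcription factor held by the retinoblastoma protein, was at 192 against 107 CPM at 24 h (0.84 ± 0.09) and at 164 against 85.0 CPM at 10 d (0.95 ± 0.09). Cdk2, the partner of E-type cyclins, was higher by 0.84 ± 0.10 and 0.83 ± 0.10, and Cks1b, a subunit needed to mark p27 for degradation, by 1.1 ± 0.10 and 0.85 ± 0.11. Cdkn1a, for the p53-induced inhibitor p21, was lower at 10 d (-0.53 ± 0.12).

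At 6 h 1 of the 19 was higher and 8 were lower, where 20.5% of all tested genes were higher and 21.2% lower, and at 3 d 2 were higher and 6 lower (19.9% and 19.4%). Rbl2, a retinoblastoma relative that acts in resting cells, was higher at both (0.65 ± 0.08 and 0.55 ± 0.08). Ccnh, the cyclin of the kinase that activates other cyclin-dependent kinases, was lower at both (-0.56 ± 0.06 and -0.69 ± 0.06). The counts of lower genes ran from 4 to 10 at 6 h and from 1 to 6 at 3 d over the alternatives, with 4 at 6 h without the libraries numbered 1 or 3, and 1 at 3 d without those numbered 1. The median log2 difference of the 19 was -0.18, 0.28, -0.06 and 0.27 at 6 h, 24 h, 3 d and 10 d.

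Also compared were 12 genes set down for S, G2 and M phase, with the origin licensing genes Cdc6 and Cdt1 among them. Division itself was not measured. All 12 genes were higher in α1ACT at 24 h (median 1.19, with 26.6% of all tested genes higher) and 11 of 12 at 10 d (median 0.96, with 29.5%). At those times Ccnd3, Ccne1, Ccne2, Cdk4 and Cdkn2c were higher and Cdkn1b and Cdk6 lower. Cdc6, which licenses replication origins, was at 69.6 against 22.6 CPM at 24 h, and Ccna2, for cyclin A2, at 169.7 against 56.2 CPM (1.61 ± 0.12 and 1.59 ± 0.10). At 6 h 2 were higher and 6 lower, where 20.5% of all tested genes were higher and 21.2% lower. At 3 d 4 were higher and 3 lower (19.9% and 19.4% of genes). The medians were -0.25 and -0.01. Over the alternatives the 6 lower at 6 h became 3 to 8, and the 4 higher and 3 lower at 3 d became 1 to 4 and 1 to 3. At these times the list was mixed. Ccna2 was lower (-0.58 ± 0.09 at 6 h and -0.27 ± 0.09 at 3 d), while Cdc6 (0.58 ± 0.12 and 0.46 ± 0.12) and Cdt1, a partner of Cdc6 in licensing (0.54 ± 0.14 and 0.57 ± 0.14), were higher. At 6 h the 2 higher genes were these licensing genes alone. The 3 d call of Ccna2 (adjusted p = 0.0258 in edgeR) ended with library sizes alone and in 6 of 9 fits with libraries left out, over a range of 5.74e-04 to 0.111. That of Cdc6 at 3 d (adjusted p = 0.00299 in edgeR) ended in 1 of 15 alternatives, over a range of 4.51e-05 to 0.0675.

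**Figure D4:**
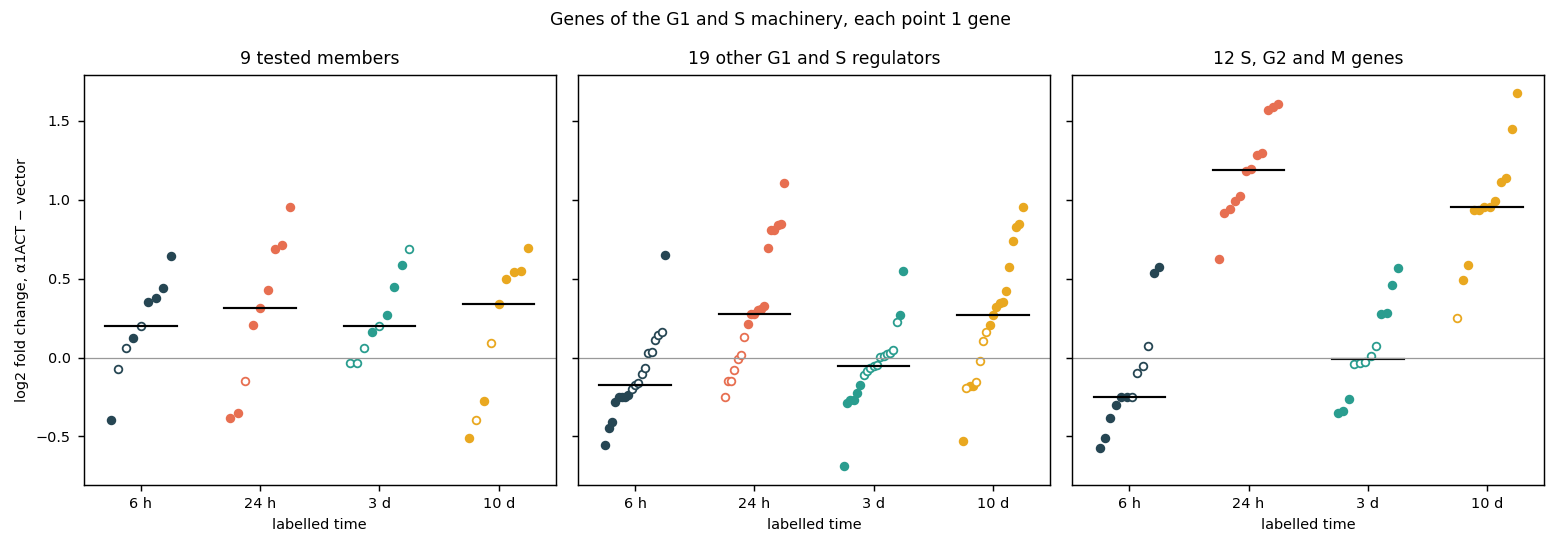
Log2 fold change of α1ACT against vector (y axis) at the 4 labelled times (x axis) for the 9 tested members, 19 other G1 and S regulators and 12 genes of S, G2 and M phase, each point 1 gene, filled where adjusted p is under 0.05, with the median as a bar. Medians of the 12 genes stand at 1.19 and 0.96 at 24 h and 10 d and at -0.25 and -0.01 at 6 h and 3 d.

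Across the 8 group means the members fell into patterns, given here as descriptions over 8 points that share libraries and scaling. Ccne2 and Cdkn2c ran together (Pearson r = 0.98 on log2 CPM), as did Ccne1 and Cdk4 (0.95). Also alike were Ccne1 and Ccne2 (0.87), Ccne2 and Cdk4 (0.86) and Ccnd3 and Cdk4 (0.82). Cdkn1b ran opposite to Cdkn2c (-0.95) and to Ccne2 (-0.95). Among these 8 members, Ccnd2 being left out for its low counts along with Cdkn1c, the highest r of Ccnd1 was 0.66, with Ccnd3, and that of Cdk6 was 0.27, with Ccnd1. Among the 8750 other tested genes at 5 CPM or more on average, the 3 most like Cdkn2c were Cenpf (0.997), Kif22 (0.996), Iqgap3 (0.996), and those most like Ccne2 were Nt5c3b (0.997), RGD1311863 (0.997), Gins1 (0.996). For Cdkn1b they were Canx (0.999), Qars (0.996), Sfxn1 (0.995), and for Ccnd1 Tmem107 (0.996), LOC691849 (0.989), Narg2 (0.986). Cdk4 was closest to Elovl2 (0.998), Fam64a (0.992), Lage3 (0.992). Ccnd3 was closest to Nxn (0.986), Oxnad1 (0.985), Atp4a (0.983), Ccne1 to RGD1311021 (0.988), Mrpl21 (0.985), Stard4 (0.978) and Cdk6 to Pclo (0.983), Pnpla7 (0.971), Ppargc1b (0.969).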

How the data were processed

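The deposited tables give, for each library, raw read counts by gene symbol. Their 5 summary lines entered neither library totals nor the model (reads outside genes were 47.8% to 52.9% of reads assigned, ambiguous or outside genes, and ambiguous reads 0.159% to 0.242%). Per the labels' protocols, libraries were made from total RNA with a stranded kit and ribosomal RNA depletion. Per the submitters' processing notes, software used was TopHat2 2.0.10, HTSeq 0.5.4p5, Picard 1.117, edgeR and FastQC 0.11.2, with build rn5. For their roles, the annotation and the strand setting, nothing was given in the sources used here.

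Counts were fitted in 1 model of all 24 libraries (1 coefficient per labelled group, 16 residual degrees of freedom) with edgeR 4.0.16 in R 4.3.3. TMM factors were 0.981 to 1.02, and filterByExpr (minimum count 10, minimum total 15) left 9994 genes. The quasi-likelihood F-test was adjusted by Benjamini-Hochberg within each of 17 comparisons, with a threshold of 0.05. Standard errors are the absolute log2 fold change divided by the square root of F. CPM are gene counts scaled by library total and TMM factor, and patterns over groups were taken on log2 CPM (prior count 2). Floors of 3 counts cover counting error only. Some marker results are not reported here.

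Replicates of a group differed by more than sampling noise (chi-square per degree of freedom 1.98 to 11.3). Numbers were taken as pairing the libraries of 2 groups where all 3 same-numbered pairs of deviations from the group means correlated above 0.1, which between the lines held at 3 d (r = 0.124, 0.318 and 0.139) and not at 6 h (0.164, 0.342 and 0.098).

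The 10 members and the lists were chosen with earlier results of these data known. Named beside the members were, from each list and comparison, up to 3 genes that were higher and 3 that were lower with the largest change past the threshold, and per member the 3 genes with the most similar group means. Alternatives were RLE factors (those of DESeq2), library sizes alone, no filter, DESeq2 1.42.0, fits of only the groups compared, the replicate number as a block, and leaving out replicates or libraries. RefSeq sequences are of GRCr8 and not rn5, so no gene coordinates of that build are set beside counts.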

Additional observations from a re-analysis of the deposited data

Results flagged for a closer look

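For 6 of the 9 tested genes the difference between the labelled lines was not the same at the 4 labelled times, by the joint interaction test of edgeR adjusted over all tested genes, which 57.7% of genes passed. Adjusted p was 3.30e-09 for Cdkn2c, 9.77e-09 for Cdk6, 1.75e-06 for Ccne2, 1.07e-05 for Ccnd1, 2.91e-05 for Cdkn1b and 0.00440 for Cdk4. The call of Cdk4 ended without all libraries numbered 3 (0.103, over a range of 0.00255 to 0.103), and Ccne1 passed only with no filter on low counts (0.0442, over a range of 0.0442 to 0.191). Log2 differences of α1ACT from vector at 6 h, 24 h, 3 d and 10 d ran -0.39 ± 0.09, 0.95 ± 0.09, -0.04 ± 0.09 and 0.69 ± 0.10 for Cdkn2c. Those of Cdk6 ran 0.38 ± 0.07, -0.39 ± 0.07, 0.44 ± 0.07 and -0.28 ± 0.07. By the file names these 4 values compare 24 h with 6 h, 10 d with 3 d, and the same again, within files of 1 name, so the line and the time of these libraries cannot be told apart while names and labels disagree.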

How the results depend on the processing

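No called value of a member changed sign under any alternative. Of 783 member values under another scaling, filter, tool, set of groups or the block, 778 kept their side of the threshold, 1 lost it and 4 gained it, and of 891 with replicates or libraries left out 852 kept it, 25 lost it and 14 gained it. With no filter the vector 3 d against 6 h comparison called 226 genes (147 with it) and the interaction by file names 112 (4 with it). With the replicate number as a block these were 258 and 47, the α1ACT 3 d against 6 h comparison called 193 (106 without the block), and at 3 d, where the numbers paired the libraries, the line comparison called 4147 (3934 without). Over all 84 same-numbered pairs of libraries from 2 groups r was -0.0791 to 0.342 (median 0.0917), 32 were over 0.1, and in 56 the own number correlated best. The block let Ccnd3 pass the joint test of time in the α1ACT line (0.0468) and changed no other member call. In fits of only the groups compared, 10 d against 24 h called 312 genes in the vector line (744 in all libraries), with 0 members, and 71 in the α1ACT line (462 in all libraries). At 6 h 49.1% of called genes were higher in α1ACT, and with library sizes alone 60.3%. With replicates or libraries left out, genes called ran from 2540 to 4070 at 6 h, 2457 to 3657 at 3 d, 5 to 478 for vector 3 d against 6 h, 7 to 358 for α1ACT 3 d against 6 h, 79 to 1132 for vector 10 d against 24 h, 4 to 819 for α1ACT 10 d against 24 h, 313 to 2049 for 3 d and 10 d against 6 h and 24 h, 3368 to 5638 for time in α1ACT and 0 to 381 for the interaction by file names. Members called ran from 4 to 6 at 6 h, 3 to 6 at 3 d, 0 to 1 for vector 10 d against 24 h, 0 to 2 for α1ACT 10 d against 24 h, 0 to 1 for 3 d and 10 d against 6 h and 24 h, 2 to 8 for time in α1ACT and 0 to 1 for the interaction by file names. The cause of these shifts was not tested beyond the fewer libraries or other genes each fit holds. Depth limits Cdkn1c, which stayed at about the floor, and Ccnd2.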

Other observations

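In the contrast of labelled 3 d and 10 d with 6 h and 24 h over both lines, which by file names sets Q11 against P, 5 of the 19 other G1 and S regulators and 5 of the 12 S, G2 and M genes passed, against 15.6% of all tested genes. Cdkn1a was higher (0.29 ± 0.06), and Rbl1, a pocket protein related to the retinoblastoma protein, was lower (-0.22 ± 0.04), as were Tfdp2, a partner of E2F factors (-0.18 ± 0.04), and E2f1 (-0.15 ± 0.04). All 5 of the S, G2 and M genes that passed were lower, among them Ccnb2, for cyclin B2 (-0.20 ± 0.05), Cdc6 (-0.20 ± 0.06) and the replicative helicase subunit Mcm5 (-0.18 ± 0.05). Without the libraries numbered 1, 0 regulators and 0 S, G2 and M genes were called lower, where 4 and 5 were with all libraries. Without those numbered 2 there were 7 and 8, and without those numbered 3 there was 1 of each. Calls among all tested genes moved as well, from 313 to 2049 over these 3 fits, against 1562 with all libraries.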
